A study of Mus musculus with 7 samples.

Results

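Binding of estrogen receptor β (ERβ, encoded by Esr2) was examined at 10 genes that the mouse oocyte expresses and granulosa cells do not: Gdf9, Bmp15, Zp1, Zp2, Zp3, Nobox, Figla, Sohlh1, Oosp1 and Nlrp5. They were taken by name, as 10 of the 21755 protein-coding genes that GENCODE annotates on the autosomes and the X chromosome of mm10, and each was read over its gene body plus 50 kb on each side. The study carried out ChIP-Seq with the ERβ antibody PPZ0506 on whole ovaries of C57BL/6J females that express ERβ endogenously, with 3 ERβ ChIP libraries and 2 libraries of input chromatin analysed here. No treatment is given for these animals, and each replicate was a pool of ovaries from several mice of young to adult ages whose estrous stage was not fixed. Chromatin of ERβ knockout ovaries, which the series also holds, was not analysed here. Because each pool held whole ovaries, in which oocytes are few among somatic cells, the cell type that carried a signal cannot be told apart. The ChIP and input libraries hold no expression marker that could check the tissue.

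An oocyte grows inside a follicle of granulosa cells, surrounded outside by theca cells, and both sides signal to each other. ERβ is a ligand-activated transcription factor that is known in the ovary mainly from granulosa cells. It binds DNA as a dimer at the estrogen response element (ERE), a palindrome of the half-site GGTCA, spelled GGTCANNNTGACC, and can also be held at DNA through other factors. The 10 genes stand for the germ-cell side of the follicle: secreted growth factors, proteins of the egg coat, germ-cell transcription factors and proteins stored in the egg.

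A site was a 200-bp window in which the signal was over 4-fold the mean of the inputs in at least 2 of the 3 ChIP libraries, with overlapping windows joined and the input never set below its genome mean. Across the genome 4869 sites met this rule. The tracks carried similar totals, with a genome mean signal of 0.362 to 0.366 in the ChIP libraries and 0.367 to 0.370 in the inputs. They are averages over segments, with a median length of 269 bp in Input 1 and 482 to 520 bp in the other libraries. The tracks do not hold the number of reads behind a value, so no counting interval is given.

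At the 10 oocyte genes 3 sites were found, and they fell at 2 of them. Zp1 had 2 sites, of which one lay 3.77 kb upstream of its start site and reached a mean of 19.0-fold over input. Sohlh1 had 1 site, 45.7 kb upstream, inside the neighbouring gene Kcnt1. It was lost without ChIP 2 or without ChIP 3, which left 1 gene with a site. Both remaining ChIP libraries then had to pass, and ChIP 1 read 3.93-fold there, so this loss follows from the rule. The share of oocyte genes with a site was 20% (2 of 10), against 27.5% of all protein-coding genes and 25.6% of the 13834 genes whose intervals are as long as those of the 10. Gdf9, Bmp15, Zp2, Zp3, Nobox, Figla, Oosp1 and Nlrp5 had none within 50 kb.

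The sequences of the 3 sites are shown because they differ in what they hold. All are on the plus strand of mm10. In the Zp1 upstream window, chr19:10924301-10924500, capitals mark a half-site, read on the minus strand as GGTCA, and the AP-1 motif TGACTCA. In the second Zp1 window, chr19:10896721-10896920, and in the Sohlh1 window, chr2:25892891-25893090, capitals mark the best match to the ERE. The last line gives the promoter ERE of Zp2, chr7:120146279-120146291, which has no mismatch and lay outside any site, with its nearest bases in lower case.
Zp1 upstream: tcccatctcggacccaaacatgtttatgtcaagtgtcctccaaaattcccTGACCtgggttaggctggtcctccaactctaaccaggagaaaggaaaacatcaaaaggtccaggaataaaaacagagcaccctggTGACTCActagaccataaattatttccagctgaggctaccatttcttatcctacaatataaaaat
Zp1 downstream: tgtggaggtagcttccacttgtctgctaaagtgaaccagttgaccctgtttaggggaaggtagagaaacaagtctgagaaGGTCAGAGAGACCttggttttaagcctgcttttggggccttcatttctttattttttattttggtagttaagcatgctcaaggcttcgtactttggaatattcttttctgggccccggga
Sohlh1 distal: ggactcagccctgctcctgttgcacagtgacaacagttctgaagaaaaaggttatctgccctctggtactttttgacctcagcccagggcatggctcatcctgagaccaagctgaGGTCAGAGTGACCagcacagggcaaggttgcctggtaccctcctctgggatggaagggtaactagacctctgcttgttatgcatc
Zp2 promoter ERE: ttactttgGGTCACTGTGACCacgtggca

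Gdf9 and Bmp15 encode secreted growth factors of the TGF-β family through which the oocyte acts on its granulosa cells. Their strongest windows reached a mean of 2.19-fold for Gdf9 and 2.04-fold for Bmp15, and neither reached 4-fold in any library. At Gdf9 the window lay in intron 5 of the neighbour Aff4, with folds of 2.02, 3.75 and 0.792 in ChIP 1, 2 and 3. At Bmp15 it lay in intergenic sequence 10.6 kb downstream of the start site, with folds of 3.94, 1.28 and 0.896. The high library was ChIP 2 at the one and ChIP 1 at the other, and the remaining libraries were between 0.792 and 2.02-fold. Within 10 kb of the start sites the strongest means were 1.53-fold for Gdf9, in intron 1 of the neighbour Uqcrq, and 1.67-fold for Bmp15. The nearest site to Gdf9 was 116 kb from its start site, with a mean of 37.0-fold, and the nearest protein-coding start site to it was that of Zcchc10. The nearest site to Bmp15 was 1688 kb away.

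**Figure D1:**
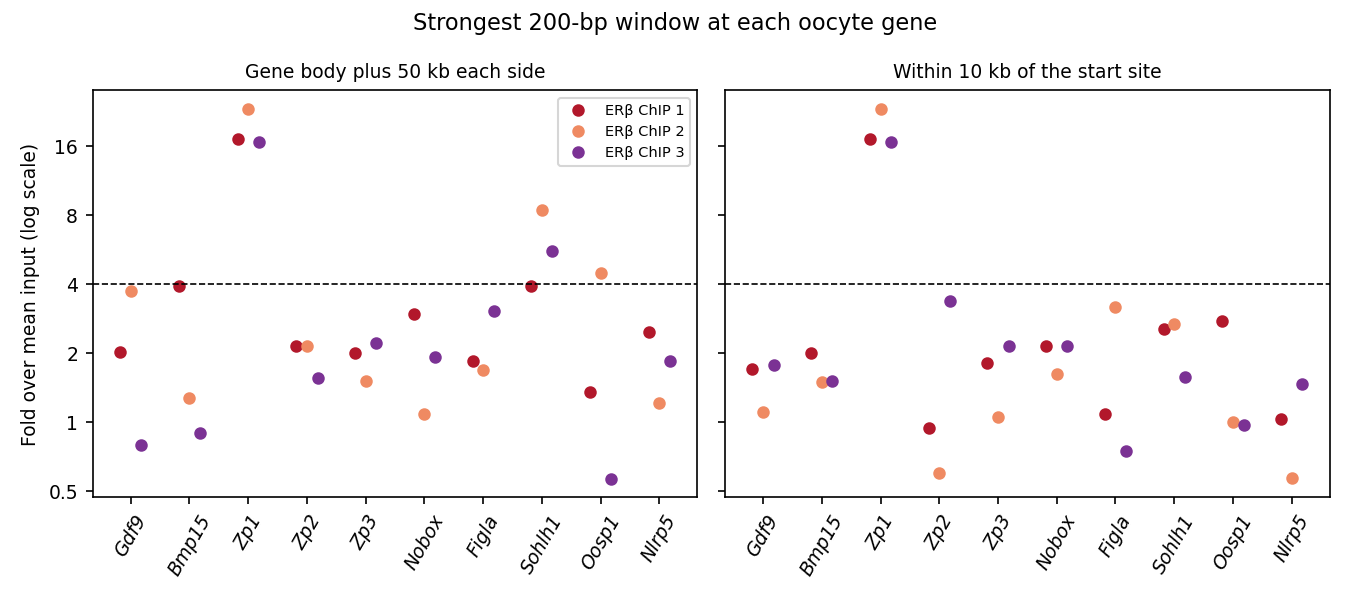
The fold over mean input (log scale) of the strongest 200-bp window at each oocyte gene is plotted for ERβ ChIP 1, 2 and 3, over the gene body plus 50 kb (left) and within 10 kb of the start site (right), with a dashed line at 4-fold. At Zp1 all 3 libraries lie above 16-fold in both panels, at Sohlh1 ChIP 2 and ChIP 3 lie above 4-fold on the left, and of the other genes Oosp1 alone passes 4-fold, in 1 library.

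Zp1, Zp2 and Zp3 encode glycoproteins of the zona pellucida, the coat around the egg. At the upstream site of Zp1 the signal was 6.44 in ChIP 1, 8.74 in ChIP 2 and 6.26 in ChIP 3, and 0.470 and 0.280 in Inputs 1 and 2. The lowest ChIP value was more than 10 times the highest input value. As the site was chosen for its signal over these inputs, the rule largely fixes that the groups stand apart. The folds were 17.2, 23.3 and 16.7, with a mean of 19.0 ± 3.68 (SD, n = 3). By mean fold this site ranked 266 of the 4869 sites of the genome. It lay in intergenic sequence, and Zp1 was the protein-coding gene with the nearest start site.

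The track names of ChIP 2, ChIP 3 and Input 2 share a prefix that ChIP 1 and Input 1 lack, so each ChIP library was also set against the input named like it. The Zp1 upstream site then had 13.7, 23.8 and 17.1-fold in ChIP 1, 2 and 3 and passed 4-fold in each. Over 1-kb windows, tested across the genome with limma, the window holding it was the only one of the 1131 at the 10 genes that passed (log2 difference 1.52 ± 0.19 SE, adjusted p = 5.21e-06, limma with Benjamini-Hochberg adjustment over 2430659 windows). Of all windows in the genome 0.0957% were higher in ChIP by this test, or 2326, and 1 of 1131 is 0.0884%. The genome share was 0.0415% without Input 2, 0.0561% without Input 1 and 0.0519% without ChIP 2, with 1 member window in each. These p-values rest on 5 pooled samples, and limma drew the variance of each window toward a trend over all windows. They therefore do not measure the spread between the 5 samples alone. Nothing in the labels says whether the inputs came from pools apart from those of the ChIP libraries.

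The best match to the ERE in the Zp1 upstream window had 3 mismatches over the 10 fixed bases of the palindrome, and the window held 1 half-site and 1 AP-1 motif. AP-1 is the binding motif of the Fos and Jun factors. A half-site stood in 84.8% of all sites and in 29.9% of the other 200-bp windows at the 10 genes, and TGACTCA, searched on both strands, in 6.63% and 3.30%. The motif of the NR5A receptors, TCAAGGTCA or CCAAGGTCA, which contains the half-site, stood in 7.15% and 0.685%, and in none of the 3 sites at the oocyte genes. Zp1 also held an element with 1 mismatch at -2.98 kb, less than 1 kb from the upstream site. Its mean was 0.974-fold, with 0.852, 1.05 and 1.02 in ChIP 1, 2 and 3, so the signal did not extend to it.

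The other site in the Zp1 interval lay 23.8 kb from the Zp1 start site, downstream, in intron 1 of Prpf19 and 1.59 kb from the start site of Prpf19, a pre-mRNA splicing factor gene. Its signal was 3.10, 3.09 and 2.92 in the ChIP libraries and 0.522 and 0.440 in the inputs. The folds stood close together, at 6.45, 6.43 and 6.08 (mean 6.32 ± 0.21, SD, n = 3). It held an ERE with 1 mismatch. Its 1-kb window did not pass (log2 difference 0.66 ± 0.18 SE, adjusted p = 0.316 in limma). Another stretch near Tmem109, at an element with 1 mismatch 41.8 kb downstream of the Zp1 start site, had 3.13, 2.25 and 3.54-fold and lay just under the rule.

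**Figure D2:**
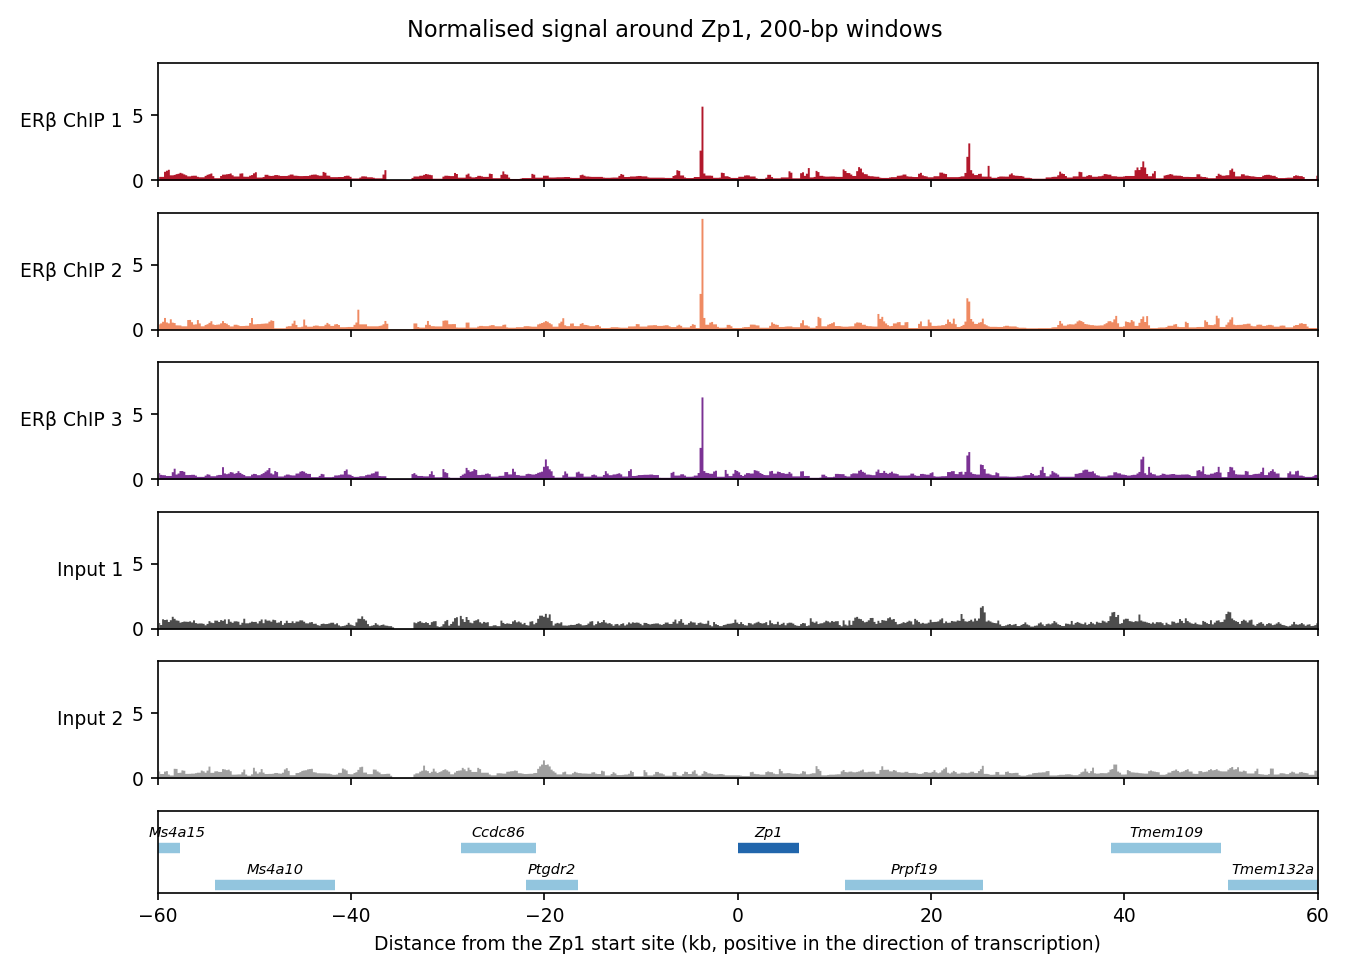
The normalised signal in 200-bp windows is plotted against the distance from the Zp1 start site in kb, 1 row for each library on the same scale, with gene bodies in the lowest row. The spike 3.77 kb upstream stands in all 3 ERβ ChIP rows at 6.26 or more and in neither input row, where it is at or below 0.470. The smaller spike lies within Prpf19.

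Zp2 and Zp3 had no site. The strongest windows had a mean of 1.95-fold at Zp2, in intron 8 of Dnah3, and 1.91-fold at Zp3, in intergenic sequence with Ywhag as the nearest start site. Folds were 2.15, 2.15 and 1.56 at Zp2 and 2.01, 1.51 and 2.22 at Zp3, so that no library reached 4-fold. Zp2 carried one of the 2 elements without mismatch at these genes, -0.994 kb from its start site. Its 200 bp had folds of 0.978, 1.18 and 0.706, which is the level of input. The nearest sites lay 619 kb from Zp2 and 488 kb from Zp3.

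Nobox, Figla and Sohlh1 encode germ-cell transcription factors. NOBOX, a homeodomain protein, and FIGLA, a basic helix-loop-helix protein, drive oocyte genes, among them the zona genes for FIGLA, and SOHLH1 acts early in germ-cell development of both sexes. Nobox and Figla had no site, with strongest means of 1.99-fold and 2.20-fold. The Nobox window had 2.96, 1.09 and 1.92-fold and lay at -27.7 kb from the start site, and the Figla window had 1.85, 1.68 and 3.07-fold and lay in intron 1 of Add2. Within 10 kb of its start site Nobox had its strongest window at the first intron, with 2.15, 1.63 and 2.14-fold. In 4.91% of the windows of the Nobox interval both inputs had no value. The nearest sites lay 595 kb from Nobox and 197 kb from Figla.

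The Sohlh1 site lay in intron 8 of 29 of Kcnt1, a potassium channel gene whose start site was 29.3 kb away, nearer than that of Sohlh1. The signal was 2.20, 4.72 and 3.14 in the ChIP libraries and 0.446 and 0.675 in the inputs. ChIP 2 was highest. The folds were 3.93, 8.42 and 5.60 (mean 5.99 ± 2.27, SD, n = 3), so ChIP 1 fell just short of 4-fold and the site rested on ChIP 2 and ChIP 3. Against the input named like it, the folds were 4.94, 6.995 and 4.66. The window held an ERE with no mismatch, GGTCAGAGTGACC. The higher of its 1-kb windows had a log2 difference of 0.45 ± 0.18 SE (adjusted p = 0.916 in limma). Within 10 kb of the Sohlh1 start site the strongest window had 2.55, 2.68 and 1.58-fold.

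Oosp1 encodes an oocyte-secreted protein, and Nlrp5, also known as Mater, a maternal-effect protein of the egg and early embryo that belongs to the subcortical maternal complex. Neither had a site. At Oosp1 the strongest window had 1.36, 4.47 and 0.565-fold, so that ChIP 2 passed 4-fold and the other libraries stood near input. It lay -37.2 kb from the Oosp1 start site. At Nlrp5 the strongest window had 2.47, 1.21 and 1.85-fold. The Nlrp5 interval had the lowest mean signal of the 10 in every library, at 0.259, 0.251 and 0.277 in ChIP and 0.206 and 0.260 in input. Within 10 kb of its start site Nlrp5 had the lowest value of the 10 genes, a mean of 1.02-fold, with 1.04, 0.570 and 1.46 in ChIP 1, 2 and 3. The nearest sites were 767 kb from Oosp1, which was the Zp1 upstream site on the same chromosome, and 1465 kb from Nlrp5.

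Taking each library alone, windows over 4-fold occurred at 2 places in the oocyte intervals in ChIP 1, 4 in ChIP 2 and 4 in ChIP 3. Those in ChIP 1 were both Zp1 sites. ChIP 2 added Sohlh1 and Oosp1, and ChIP 3 added Sohlh1 and another window in the Sohlh1 interval, 28.7 kb downstream. When one input was set over the other, none occurred at these genes, against 69 and 245 in the genome. Sites were also chosen with 2 libraries and read in the one left out. The upstream Zp1 site then had 17.2-fold in ChIP 1, 23.3-fold in ChIP 2 and 16.7-fold in ChIP 3. The Prpf19 site had 6.28, 6.43 and 6.08-fold in the library left out. The Sohlh1 site was chosen without ChIP 1 only, where it read 3.93-fold. In the genome, the median fold in the library left out was 5.71 for ChIP 1, 7.93 for ChIP 2 and 7.50 for ChIP 3.

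Signal was next averaged over whole intervals, which asks whether a gene stood above input without any local window. The ChIP mean divided by the input mean ranged from 0.820 at Zp1 to 1.16 at Bmp15 and had a median of 0.934, with 0.923 over all protein-coding genes. At Gdf9, for example, the interval mean was 0.415, 0.460 and 0.465 in ChIP and 0.536 and 0.513 in input, and all ChIP libraries lay below both inputs. The same held at Zp1, Zp3 and Sohlh1, 4 of the 10 genes, as it did at 47.5% of all genes. At Bmp15 (0.332, 0.307 and 0.323 in ChIP, 0.270 and 0.281 in input) and at Oosp1 (0.322, 0.329 and 0.305 in ChIP, 0.269 and 0.295 in input) all ChIP libraries lay above both inputs, against 11.9% of all genes. Thus Zp1, with the strongest site, had the lowest ratio over its interval.

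The ratio was above 1 at Bmp15 (1.16), Oosp1 (1.13) and Nlrp5 (1.13). Their intervals had the lowest GC content of the 10, at 39.2%, 40.4% and 41.3%, while the range reached 49.8% at Sohlh1. The part of base composition in these ratios was not tested. An exact permutation test of each interval and promoter (two-sided, 3 ChIP against 2 input libraries, 20 tests) cannot give a p below 0.2, and the lowest adjusted p was 0.5. Differences in mean signal were therefore not detectable with this number of libraries. In the 1-kb windows, none was lower at an adjusted p under 0.05 in limma at the 10 genes, against 0.00267% in the genome. With the replicate number as a block, 6 were lower (0.531%), against 0.132% in the genome, and 2 were higher (0.177%), against 0.141%. In that fit 0.324% to 0.486% of the windows were lower at the other gene lists compared below. At an unadjusted p under 0.05, 26 were higher (2.30%, against 1.9% in the genome) and 76 lower (6.72%, against 3.33%). The share lower was also above that of the genome at the other lists. It was 4.90% at other oocyte genes, 6.64% at granulosa genes and 7.66% at theca and luteal genes. At testis germ-cell genes it was 7.12%, and at genes of other tissues 6.60%. These numbers rested on having both inputs. When Input 1 or Input 2 was left out, fewer windows passed, both at the 10 genes and in the genome. Of the 26, 6 lay at Bmp15, 6 at Oosp1 and 9 at Nlrp5, where none was lower, while 18 were lower at Zp1, 18 at Zp3, 16 at Sohlh1 and 14 at Gdf9.

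At the promoters, from 1 kb upstream to 100 bp downstream of the start site, the ratio ran from 0.587 at Gdf9 to 1.36 at Oosp1. At Oosp1 the ChIP libraries had 0.315, 0.322 and 0.393 and the inputs 0.249 and 0.257, so that all ChIP libraries were higher, as at 4.91% of all promoters. At Sohlh1 the ChIP libraries had 0.266, 0.318 and 0.389 and the inputs 0.481 and 0.456, all lower, as at 25.8% of all promoters. At the other 8 promoters the groups overlapped. The median over all protein-coding promoters was 0.842, and that of the 10 genes 0.840. The Gdf9 promoter had the highest input signal of the 10, 1.23 and 0.889, and its ChIP values of 0.385, 0.583 and 0.899 spread by more than 2-fold. This stretch also holds the start site of Uqcrq, on the opposite strand and 0.192 kb upstream of that of Gdf9.

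**Figure D3:**
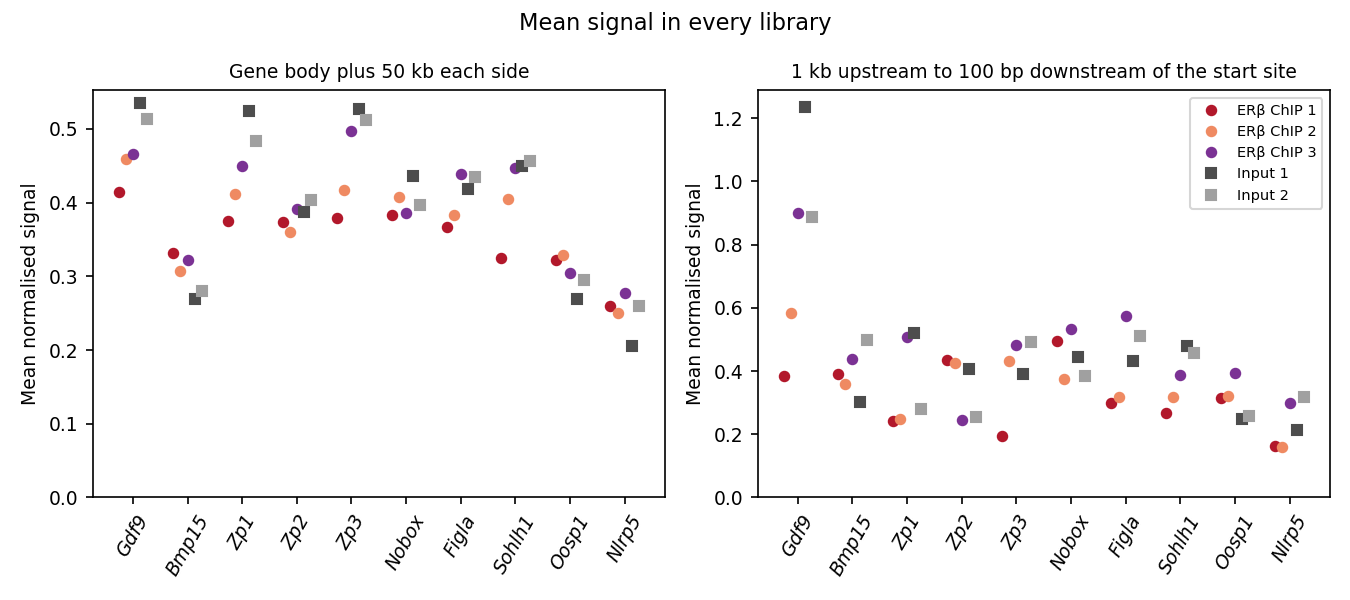
The mean normalised signal of each oocyte gene is plotted for ERβ ChIP 1 to 3 (circles) and Inputs 1 and 2 (squares), over the gene body plus 50 kb (left) and the promoter (right). Over the intervals, ChIP lies below both inputs at Gdf9, Zp1, Zp3 and Sohlh1 and above both at Bmp15 and Oosp1, and the promoters overlap at 8 of 10 genes.

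The EREs of these intervals were then counted, whether or not a site lay there. With at most 1 mismatch there were 39, in the intervals of 9 genes and with none at Bmp15. Of these, 2 were over 4-fold in at least 2 ChIP libraries, or 5.13%, where 2.26% of the 72460 such elements of the genome were. The 2 are the Prpf19 and Kcnt1 elements. The other 37 had no site, 36 of the 39 had a mean under 2-fold, and the median was 0.972-fold. At the gene lists compared below, the share over 4-fold was also above that of the genome. It was 3.30% at other oocyte genes, 3.26% at testis germ-cell genes and 4.17% at genes of other tissues. Theca and luteal genes had 6.10% and granulosa genes 10.8%. Among elements without mismatch, 12.5% of 2357 in the genome were bound, and 1 of 2 here: the Sohlh1 element read 3.79, 8.08 and 5.60-fold in the 200 bp centred on it, and the Zp2 element was at input. Only 12 of the 39 elements had an oocyte gene as the nearest start site.

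**Figure D4:**
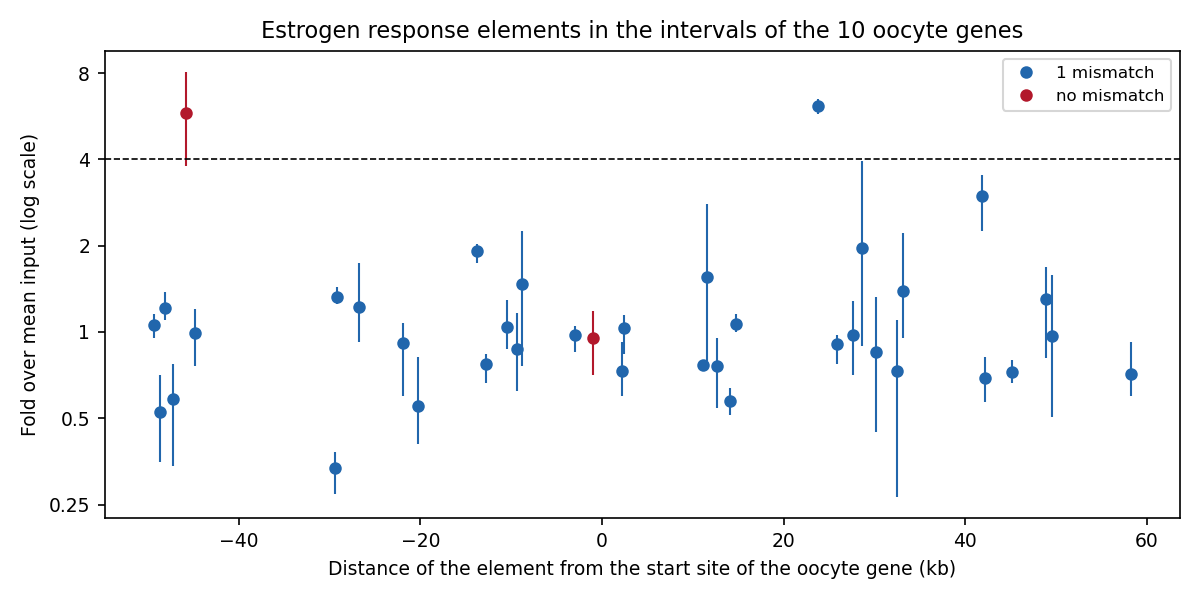
Each estrogen response element with at most 1 mismatch in the intervals of the 10 oocyte genes is plotted by its distance from the start site of that gene in kb and its fold over mean input (log scale), as the mean (point) and range (line) of 3 ERβ ChIP libraries. The dashed line is at 4-fold, and 1 element of Nobox without signal in any library is left out. The Kcnt1 and Prpf19 elements are above the line, and the Zp2 element near the start site is at 0.956.

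Of the 3 sites at the oocyte genes, 2 held an ERE with at most 2 mismatches, where 67.9% of all sites did and 8.06% of the other windows at these genes. The strongest of the 3 was the one without. For the promoters, RefSeq sequences on GRCm38.p6 (250 bases upstream to 50 downstream) matched 7 of the 10 genes, with 8 promoters. Their start sites can differ from the GENCODE ones used for the signal. At Figla the RefSeq stretch, chr6:86016941-86017240, did not overlap the promoter read for signal, chr6:86015171-86016271. One of the Nlrp5 stretches, chr7:23403852-23404151, lay inside the gene body, downstream of the GENCODE start site. An ERE with at most 2 mismatches stood in 1 of the 7, Nobox, and in 11.1% of all promoters. The half-site GGTCA stood in 3 of 7, at Nobox, Oosp1 and Sohlh1, and in 40.5% of all. The E-box CAGGTG, a motif that basic helix-loop-helix factors bind, stood in 5 of 7, at Figla, Nobox, Oosp1, Sohlh1 and Zp3, and in 20.2% of all. TAATTG, a motif described for NOBOX, stood in none of the 7 and in 8.0% of all. Each was searched on both strands, and a match describes the letters only.

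The oocyte genes were set beside lists of somatic genes of the follicle. Among 20 granulosa cell genes 13 had a site (65%), and among 20 theca and luteal genes 12 did (60%). Among 22 other oocyte genes 4 did (18.2%), and among 20 testis germ-cell genes and 20 genes of other tissues 5 did in each (25%). The strongest granulosa sites were at Gata4, with a mean of 47.3-fold, Inhbb with 36.1 and Foxl2 with 28.5. Those at theca and luteal genes were at Nr5a1 with 28.1, Hsd3b1 with 26.0 and Gli1 with 15.6. The Zp1 upstream site, at 19.0-fold, thus stood within the range of the somatic ones. The other oocyte genes with a site were Taf4b (13.4), Tle6 (7.95), Kit (6.29) and Btg4 (3.67 as the mean of 3 libraries). Whether genes of this list are also expressed in somatic cells of the ovary was not checked here. The strongest sites at testis germ-cell genes were at Tssk2 with 69.8, the highest of all lists, Sycp3 with 9.64 and Adam2 with 6.25. Those at genes of other tissues were at Apoa2 with 12.7 and Elane with 10.9. A site in an interval can lie far from the start site of the named gene. Within 10 kb of it the strongest mean was 1.64-fold at Tssk2, 2.04 at Gata4, 1.61 at Hsd3b1 and 1.57 at Gli1. At Inhbb it was 30.3, at Nr5a1 28.1 and at Foxl2 8.99. These shares describe the lists, which were not tested against each other. The lists were chosen with earlier results of these data known, so the contrast between them is not independent of these data.

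The distance to the nearest site was longest at the oocyte lists. The median distance from the start site to the nearest site was 541 kb for the 10 oocyte genes and 200 kb for the other oocyte genes. It was 20.6 kb for granulosa genes and 35.8 kb for theca and luteal genes. For testis germ-cell genes it was 90.0 kb, for genes of other tissues 148 kb and for all genes 172 kb. In 8 of the 10 oocyte genes the distance was over 100 kb. A site within 10 kb of the start site was found at 1 of the 10, Zp1, and at none of the 22 other oocyte genes. It was found at 8 of 20 granulosa genes and 4 of 20 theca and luteal genes. The count was 2 of 20 testis germ-cell genes and 1 of 20 genes of other tissues, and the share of all genes 5.67%. Per Mb of interval there were 2.63 sites at the 10 oocyte genes, with 2 of the 3 at Zp1. Over the whole length of the autosomes and the X chromosome, with the stretches far from genes included, there were 1.85 per Mb. The other oocyte genes had 1.78, testis germ-cell genes 3.15, genes of other tissues 3.17, granulosa genes 10.5 and theca and luteal genes 7.73.

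**Figure D5:**
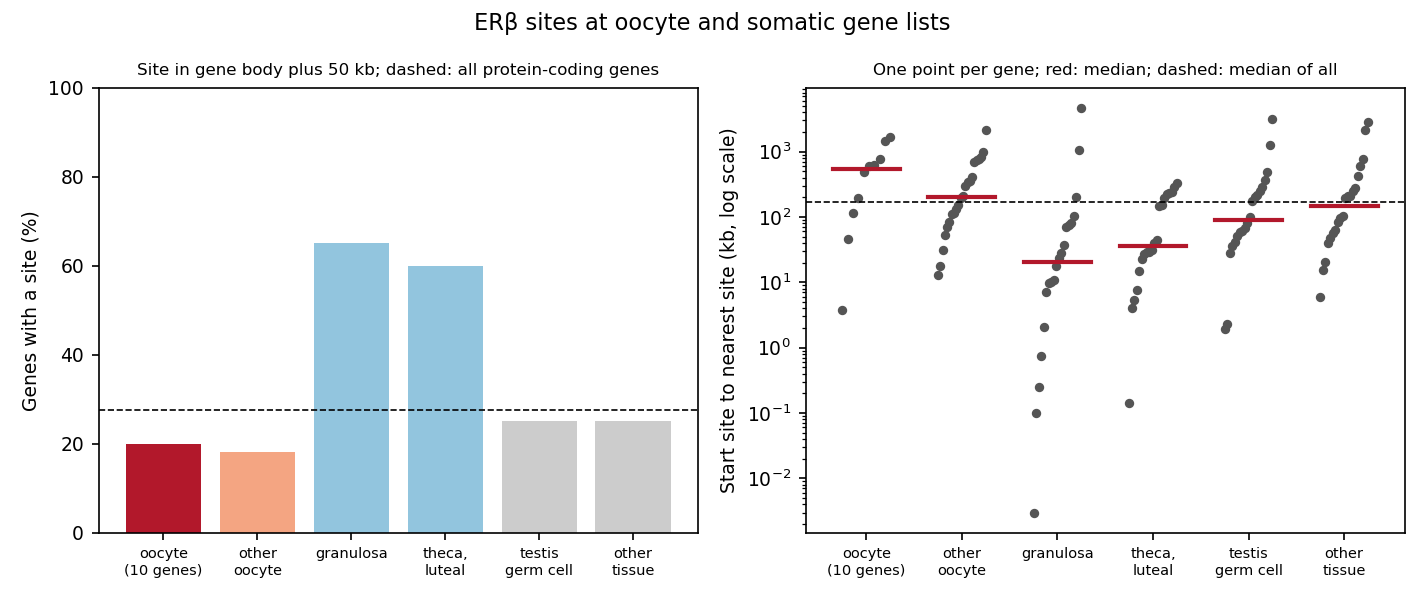
The left panel gives the percentage of genes with a site in the gene body plus 50 kb for each list (bars) and for all protein-coding genes (dashed line), and the right panel the distance in kb (log scale) from each gene's start site to the nearest site, with list medians in red. The oocyte lists are at 20% and 18.2% and the granulosa and theca and luteal lists at 65% and 60%. The median distance is 541 kb for the 10 oocyte genes and 20.6 kb for granulosa genes. The lists were chosen with earlier results of these data known.

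The lists were also compared without a threshold. The strongest window within 10 kb of the start site had a median of 1.67-fold over the 10 oocyte genes, 1.79 over the other oocyte genes, 2.20 over granulosa genes, 1.85 over theca and luteal genes and 1.75 over all genes. For testis germ-cell genes this median was 1.74, and for genes of other tissues 1.70. Over the whole interval the medians were 2.08 and 2.19 for both oocyte lists, 7.54 for granulosa genes and 6.21 for theca and luteal genes. The testis germ-cell genes had 2.19, genes of other tissues 2.08 and all genes 2.35, so the oocyte lists stood at the level of these unrelated lists. In the 1-kb windows 21 of 2833 were higher at granulosa genes by limma (0.741%) and 12 of 2715 at theca and luteal genes (0.442%). At the other oocyte genes 5 of 2776 were higher (0.180%), as were 3 of 2177 at testis germ-cell genes and 5 of 2469 at genes of other tissues. The 10 oocyte genes had 1 of 1131. Without ChIP 2, and likewise without Input 2, 14 were higher at granulosa genes and 7 at theca and luteal genes. The other oocyte genes then had 1, testis germ-cell genes 1, genes of other tissues 2 and the 10 oocyte genes 1. The genome share fell from 0.0957% to 0.0519% without ChIP 2 and to 0.0415% without Input 2. The range at the 10 oocyte genes near the start site ran from 1.02-fold at Nlrp5 to 19.0-fold at Zp1, and Zp1 was the 1 gene above 4-fold.

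Many of the intervals hold other genes. There were 28 other protein-coding start sites in the intervals, from 7 at Gdf9 to none at Bmp15 and Nlrp5. Of the 3 sites, the Prpf19 and Kcnt1 sites were nearer to the start site of that neighbour than to the oocyte gene. The upstream site of Zp1 was the 1 site in the genome to which an oocyte gene of the 10 had the nearest start site.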

How the data were processed

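ChIP-Seq signal tracks of 5 libraries (3 ERβ ChIP, 2 input) were analysed, and 2 knockout ChIP samples were not analysed here. The authors aligned reads with STAR to mm10, kept uniquely mapped reads and deposited signal (coverage) tracks made with HOMER, each normalised to a common total and averaged over segments of unequal length, which flattens narrow peaks. Versions and duplicate handling are not given in the sources used here, and the tracks hold no read counts. The study's count test could not be used on signal. The members and the gene lists were chosen with earlier results of these data known.

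Mean signal was computed in 200-bp windows at 10-bp steps with Python 3.11.15, numpy 2.4.6 and pandas 2.3.3, each ChIP library was divided by the mean of the inputs (at least their genome mean), and windows over 4-fold in 2 of 3 libraries were joined into sites. Gene bodies came from GENCODE and sequences from the mm10 genome. Adjoining 1-kb windows averaging 0.1 or more over the libraries were tested as log2(signal + 0.5) with limma 3.58.1 in R 4.3.3 and Benjamini-Hochberg adjustment, threshold 0.05, and differences are on that scale. Interval and promoter means were compared by exact permutation tests. EREs were matched to 10 fixed bases. Both the site caller and the limma step were tested on simulated data. All 10 members are named whatever their values, with every site, and of the other lists the 3 genes with the strongest site, apart from the 4 other oocyte genes with a site, of which the last was named after its value was seen. One gene of the other-tissue list is not reported here. The alternatives are given in the closing section.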

Additional observations from a re-analysis of the deposited data

How the results depend on the processing

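Zp1 kept its upstream site under every alternative that gave a value. The number of sites at the 10 genes, 3, became 1 with 10 kb each side, 1 when only sites with the gene's own start site nearest were counted and 1 at over 8-fold, and 4 at over 3-fold. The number of genes with a site, 2, became 1 under those first 3 settings and 1 when all 3 ChIP libraries had to pass, since Sohlh1 then lost its site. The share of all protein-coding genes under these settings was, in the same order, 13.5%, 15.1%, 11.5% and 20.1%. Leaving out 1 library gave 2 to 3 sites and 1 to 2 genes with a site: without ChIP 2 or without ChIP 3 Sohlh1 had no site and the number of genes was 1. With a ChIP library left out, both remaining ChIP libraries had to pass. Over the same alternatives granulosa genes with a site numbered 9 to 17, theca and luteal genes 6 to 16 (6 with 10 kb each side and at over 8-fold), other oocyte genes 2 to 8, and the share of all genes ran from 11.5% to 40.4%. A rule that also asked for 4 times the surrounding 10 kb and for a height cleared by the inputs gave no value, because no height met it. The local part alone was added after seeing the data and left 3 sites at 2 genes.

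In limma, 1 window was higher at the 10 genes in all fits except 200-bp windows, with 2, and the replicate block, with 2. Leaving out 1 library left 1 higher window, and 0 to 1 lower, the 1 without ChIP 3. With the replicate block 6 windows were lower (0.531%, against 0.132% in the genome and 0.324% to 0.486% at the other gene lists). The shared replicate numbers give 2 pairs only, and nothing in the labels says that a number marks a shared pool. With no mismatch allowed, 1 of the 3 sites held an ERE. The median fold in the library left out was 5.93 and 7.03 with each input alone, against 6.43. With 3 ChIP and 2 input libraries and no read counts in the tracks, absence of a site says that none was detectable.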
